A study of Mus musculus with 2 samples.

Results

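The 40 genes described here encode proteins of neurons and are widely cited as targets of REST, the repressor that keeps neuronal genes off outside the nervous system. They were taken by symbol, with earlier results of these data known, and all 40 were found among the 22350 protein-coding genes on the autosomes and X in the NCBIM37 (mm9) annotation. Chromatin immunoprecipitation and sequencing (ChIP-seq) had been done on 3T3 mouse embryonic fibroblasts of genotype Ccnd1-/-, which lack the gene of cyclin D1, that stably express FLAG-tagged cyclin D1 from an MSCV retroviral vector. The 2 libraries share these cells, with no treatment: 1 was made with the anti-FLAG M2 antibody and 1 with normal mouse IgG as the background. The tagged protein was thus made from a viral promoter rather than from Ccnd1 itself, the labels do not say how many clones the cells came from, and with 1 library per antibody no difference has a replicate check.

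REST binds a long DNA element called RE1, whose left and right arms are read by different parts of its zinc finger domain. It recruits the corepressors CoREST and SIN3 with histone deacetylases, and in fibroblasts and other non-neuronal cells this holds synaptic, granule, channel and axonal genes silent. RNA was not measured here, so silence of the 40 genes in these cells could not be checked, nor could the labelled cell type be checked against its marker genes.

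The libraries held 9259840 anti-FLAG and 9312346 IgG tags. Over introns 1 to 3 of Ccnd1 there were 1 anti-FLAG and 0 IgG tags, where 17 anti-FLAG tags would lie at the genome-wide mean. The libraries covered GC-rich DNA unequally. Away from genes, in 500-bp windows over 10 kb from every transcription start site (TSS), anti-FLAG tags divided by IgG tags, with the totals made equal, gave 0.678 where GC content was 24 to 26%, 1.02 where it was 42 to 44% and 2.18 where it was 60 to 62%. The neuronal promoters were GC-rich, with a median of 54.8% in the 2-kb window against 51.1% over all protein-coding genes. A GC-expected ratio, read from those distant windows at the same GC content, therefore stands beside the results below. All intervals are exact 95% intervals that cover counting error only.

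The RE1 element was searched first, as the feature that names the group, and its matches are shown because the tags turned out to gather on some of them. The consensus searched was the left arm TTCAGCACC, then 2 free bases, then the right arm GGACAGCGC, on both strands, with up to 3 of the 18 letters different. Of the 40 neuronal genes, 20 (50%) had such an element within 10 kb of the TSS, against 3.02% of all protein-coding genes (676 of 22350). Within 1 kb it was 14 (35%) against 0.77%. Because the genes were taken as cited targets of REST, these shares describe the list and are no test of it. A match is a description of sequence and not a binding site. Several members are printed from the NCBIM37 genome, on the strand that carries the match and 5′ to 3′, with letters that match the consensus in capitals and the others, free bases included, in lower case.

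Snap25, chr2:136540074-136540093, + strand: TTCAGCACCgcGGACAGCGa

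Glra1, chr11:55421439-55421458, + strand: TTCAGCACCacGGAgAGCGt

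Chgb, chr2:132607530-132607549, + strand: TTCAGCACCccGGACAGCtC

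Stmn2, chr3:8508230-8508249, + strand: TTCAGCACCacGGACAGCGC

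Chga, chr12:103788904-103788923, + strand: TTCAGgACCacGGACAGCGa

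Bdnf, chr2:109516202-109516221, + strand: TTCAGCACCttGGACAGaGC

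Gad1, chr2:70397756-70397775, - strand: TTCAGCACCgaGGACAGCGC

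Grin1, chr2:25174535-25174554, - strand: TTCAGCACCtcGGACAGCaC

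Syn1, chrX:20498257-20498276, - strand: TTCAGCACCgcGGtCAGaGC

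Celsr3, chr9:108728249-108728268, + strand: TTCAGCACCgtGGgCAGCaC

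The first 5 had the most anti-FLAG tags of the matches at these genes, and the last 5 had 7 or fewer, although several match the consensus as closely. Only Stmn2 and Gad1 carried an element with 0 letters different. By the annotation the Snap25, Chgb and Gad1 elements are intronic, those of Glra1, Grin1 and Bdnf lie in untranslated exon sequence of these genes, and those of Stmn2, Syn1, Celsr3 and the Chga element shown are upstream in intergenic DNA.

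On these elements anti-FLAG tags stood above IgG tags. The 500-bp windows centred on the 21 elements of the neuronal genes held 134 anti-FLAG and 41 IgG tags, a ratio of 3.29 (2.30 to 4.79), where their GC content gave an expected ratio of 1.47. In the central 200 bp the counts were 95 and 14, a ratio of 6.83 (3.87 to 13) against 1.66 expected. Anti-FLAG tags were more numerous than IgG tags at 17 of the 21 windows, equal at 3 and fewer at 1.

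The excess was unevenly shared among the genes. Snap25, which encodes a SNARE protein of vesicle fusion, had 22 anti-FLAG tags and 1 IgG tag on its element, 895 bp downstream of the TSS, the highest anti-FLAG count of the 21 (adjusted exact p = 2.13e-05, and 0.00236 against the GC-expected ratio). Glra1, the gene of a glycine receptor subunit, had 16 against 1 on an element 251 bp downstream (adjusted exact p = 6.78e-04, and 0.0208 against the GC-expected ratio). Chgb, which encodes the granule protein chromogranin B, had 14 against 3 at 526 bp downstream (adjusted exact p = 0.0238), a window of 64.6% GC that did not pass against the GC-expected ratio (0.798). These were the 3 of 7 tested windows of the neuronal genes that passed, and the 2 that passed against the GC-expected ratio were those of Snap25 and Glra1. The test ran over every such element in the genome whose window held 10 or more tags, both libraries summed, and of these 35.5% passed (102 of 287), and 26.1% against the GC-expected ratio (75 of 287). Because a window with few IgG tags reaches 10 tags mainly through the anti-FLAG library, these shares describe windows that had to be high in it.

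Other elements had smaller counts. The upstream element of Stmn2, a microtubule regulator of growing axons, had 10 anti-FLAG and 3 IgG tags at 36.4% GC, where the expected ratio was 0.846 (adjusted exact p = 0.124). The Chga element 4265 bp upstream had 12 against 3 (adjusted exact p = 0.0566), and a further one of the same gene 279 bp downstream had 4 against 0. Chga encodes chromogranin A, another granule protein. At Bdnf, the gene of a neurotrophin, the window held 7 against 3 tags (adjusted exact p = 0.351). The Gad1 element, 6637 bp into the gene of a GABA-synthesising enzyme and without a differing letter, had 5 anti-FLAG against 8 IgG tags (adjusted exact p = 0.710). It was the 1 window in which IgG was higher. Grin1 had 1 against 0 on its element, Syn1 2 against 2, Syp 0 against 0 and Gria2 1 against 1, too few to test. Of the others too few to test, Nefm had 7 against 2, Vgf 6 against 2, Nefh 5 against 1 and Elavl3 5 against 0. Tubb3 had 5 against 3, Syt4 5 against 4, and Gad2 and Calb1 2 against 1 each. A difference at these elements was not detectable at this depth.

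The same DNA around the Snap25 element holds a weaker match 50 bp away, with 4 letters different, and both are in capitals in the stretch that follows, from chr2:136540014-136540153 on the + strand.

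Snap25 intron: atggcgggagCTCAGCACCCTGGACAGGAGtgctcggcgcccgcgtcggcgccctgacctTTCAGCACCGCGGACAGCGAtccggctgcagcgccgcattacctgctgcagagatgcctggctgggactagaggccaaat

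Their 500-bp windows overlap, so the tags cannot be assigned to either match. With 4 letters different allowed, 12 further elements appeared at 10 of the genes. Celsr3, a cadherin of axon guidance, had 17 anti-FLAG tags and 0 from IgG on such a match 845 bp downstream, in a coding exon, whereas the closer match 392 bp upstream had 3 against 2. The weaker match was singled out after its tags were seen.

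Celsr3, chr9:108729486-108729505, + strand: TTgAGCgCCctGGgCcGCGC

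The pattern was not limited to neuronal genes. Across the genome 2140 elements with up to 3 letters different had 2.43 anti-FLAG and 0.660 IgG tags per central 200 bp, a ratio of 3.70 (3.49 to 3.93) where GC content gave 1.25. Away from promoters, over 1 kb from every TSS, 1932 elements had a ratio of 3.45 (3.24 to 3.67) against 1.23 expected. The 7 elements of the neuronal genes among them had 34 against 10 tags, a ratio of 3.42 (1.65 to 7.76) against 1.31 expected. With up to 2 letters different, the neuronal genes' 19 elements had 4.79 anti-FLAG tags each and a ratio of 6.54 (3.70 to 12.4). All 208 such elements within 10 kb of protein-coding TSSs, these included, had 4.75 tags each and a ratio of 7.82 (6.49 to 9.48). With up to 3 letters different, the 21 elements of the neuronal genes had 4.52 tags each and the ratio of 6.83 given above, and all 600 near protein-coding TSSs had 2.96 and 4.87 (4.35 to 5.47). Matches with up to 2 letters different were 19 of those 21 and 208 of those 600.

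**Figure D1:**
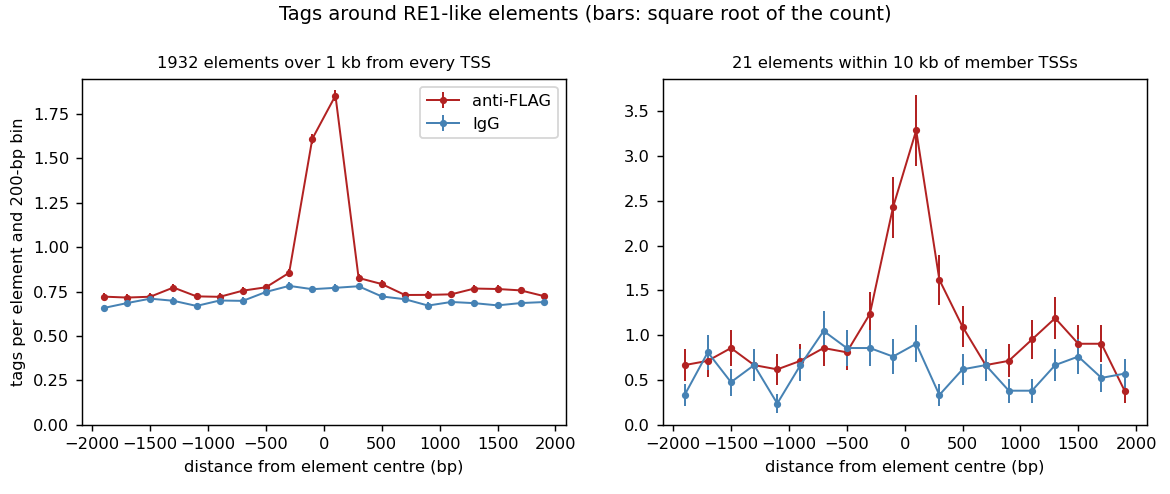
Tags per element in 200-bp bins (y) by distance from the element centre in bp (x, in the element's own direction), for 1932 RE1-like elements over 1 kb from every TSS (left) and for the 21 elements within 10 kb of the TSSs of the neuronal genes (right), red for anti-FLAG and blue for IgG, with bars of the square root of the count. In the left panel anti-FLAG reaches 1.85 tags per element just downstream of the centre and IgG 0.771, and in the right panel 3.29 and 0.905.

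The excess was narrow. Around the 1932 elements the anti-FLAG to IgG ratio was 2.12 and 2.42 in the 200-bp bins on either side of the centre, 1.1 and 1.07 in the next bins outwards, and between 1.02 and 1.14 beyond. At the neuronal genes it was 3.21 and 3.65 in the central bins, and 4.89 (2.13 to 13.1) at 200 to 400 bp downstream. Tags of opposite strands flanked the element. Around the 531 elements with up to 2 letters different and over 1 kb from every TSS, plus-strand anti-FLAG tags began most often 75 to 25 bp to the left of the centre, with 197 tags in each of the 25-bp bins there, and minus-strand tags 25 to 50 bp to the right, with 189. The median bins held 48 and 43. In the IgG library no bin held more than 42 tags on either strand.

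The ratio depended on the closeness of the match. Among elements over 1 kb from every TSS it was 5.12 (2.65 to 10.8) for 12 elements with 0 letters different, 5.66 (4.50 to 7.18) with 1, 5.80 (5.08 to 6.65) with 2, 2.59 (2.41 to 2.80) with 3 and 1.32 (1.28 to 1.36) with 4, where GC content gave 1.17. The first 3 of these intervals overlap. A complete left arm whose partner differed in at least 5 of 9 letters gave 1.09 (1.07 to 1.11), with 1.07 expected, and a complete right arm alone 1.51 (1.41 to 1.61), with 1.24 expected. For comparison, matches to the consensus of CTCF, the insulator protein that binds many sites in most cell types, were counted in the same way. They had a ratio of 3.39 (3.29 to 3.49), with 1.19 expected, at 6195 matches over 1 kb from every TSS, so the excess was also not limited to RE1. The closeness classes, single arms and CTCF matches were added after the data were seen.

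**Figure D2:**
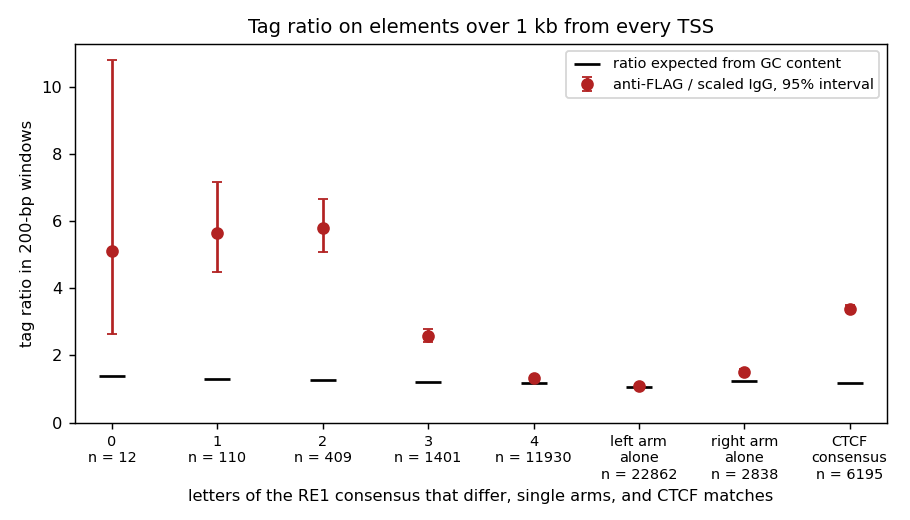
Ratio of anti-FLAG to scaled IgG tags in 200-bp windows (y) for RE1 elements over 1 kb from every TSS by the number of consensus letters that differ (0 to 4), for 1 complete arm alone and for matches to the CTCF consensus (x), with exact 95% intervals and black bars at the ratio expected from GC content. The ratio falls from 5.80 at 2 letters to 1.32 at 4, is 1.09 for the left arm alone and 3.39 for CTCF matches.

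At the promoters of the 40 genes as a group, 1 kb either side of the TSS, anti-FLAG tags were also above IgG, by about as much as at other genes. The windows held 474 anti-FLAG and 250 IgG tags, a ratio of 1.91 (1.63 to 2.23), against 1.69 (1.69 to 1.70) at the other 22310 protein-coding promoters. GC content gave expected ratios of 1.33 and 1.21. The ratio stood 1.44 times above the expected one for neuronal genes and 1.40 times for the others. Anti-FLAG tags were more numerous than IgG tags at 30 of the 40 promoters, fewer at 6 and equal at 4. The median log2 ratio, with 1 tag added to each count, was 0.88 against 0.59 over all promoters, and 0.23 against 0.26 relative to the GC-expected ratio.

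Per gene, 15 of the 40 promoters had the 20 tags in both libraries together that the test required, and 25 had fewer. Of the 15, 4 were called higher in the anti-FLAG library and 0 lower, by an exact 2-sided binomial test with Benjamini-Hochberg adjustment over 10937 promoters. Over all tested promoters 29.7% were called higher, so the 4 are near the background. All 4 had 8 or fewer IgG tags and reached 20 tags mainly through the anti-FLAG library, in which they were then called high. With no tag minimum 5 of the 40 (12.5%) were called higher, against 12.2% of all promoters then tested. Against the GC-expected ratio 0 of the 15 passed, where 2.58% of all tested promoters did, and 5 of the 15 (33.3%) had an unadjusted exact p under 0.05 with anti-FLAG higher, against 19.1% of all tested promoters. Such a test sets 1 library against another and cannot speak for further libraries of either antibody.

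**Figure D3:**
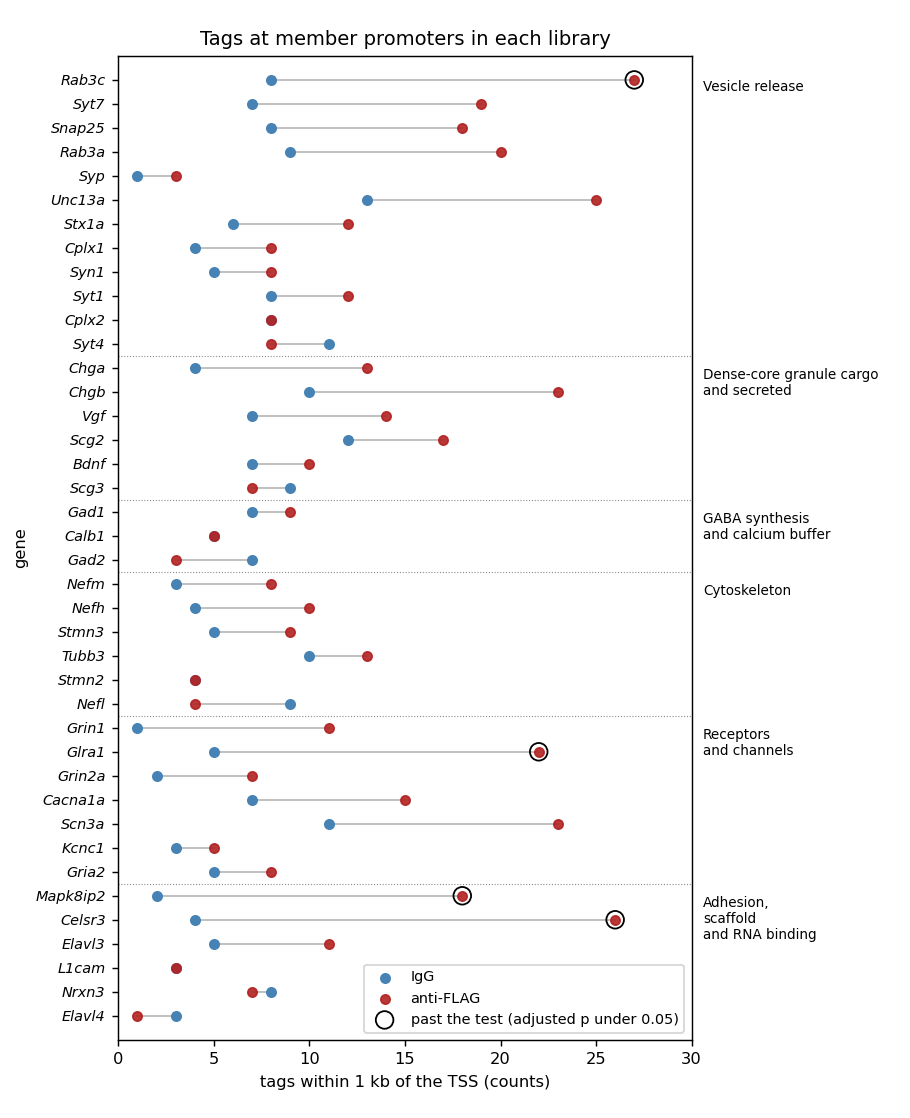
Tags within 1 kb of the TSS (x, counts) for each of the 40 neuronal genes (y, grouped by role), red for anti-FLAG and blue for IgG, joined by a grey line, with rings around the 4 genes past the test. Anti-FLAG counts run from 1 at Elavl4 to 27 at Rab3c and IgG counts from 1 to 13.

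Among the 12 genes of vesicle release, 1 of 6 tested promoters was called. Rab3c, a small GTPase of synaptic vesicles, had 27 tags from anti-FLAG and 8 from IgG around position 111071109 on chromosome 13, its TSS (ratio 3.39, 1.5 to 8.65, log2 ratio 1.65, adjusted exact p = 0.00961, and 0.124 against the GC-expected ratio). Of these, 15 and 3 lay 500 to 1000 bp downstream. No RE1 element of up to 4 letters different lay within 10 kb. The call was lost when the window was widened to 2.5 kb either side (log2 ratio 0.14, adjusted exact p = 0.851) and when all transcript starts were used (0.55, adjusted exact p = 0.292).

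The other tested genes of vesicle release leaned the same way without passing. Syt7, a calcium sensor of the synaptotagmin family, had 19 against 7 tags (adjusted exact p = 0.0582) and Rab3a 20 against 9 (0.102). Snap25 had 18 against 8 (log2 ratio 1.09, adjusted exact p = 0.116), nearly all of it at its element. Its bin 500 to 1000 bp downstream held 16 against 1, while within 500 bp of the TSS the log2 ratio was -1.21. Unc13a, a vesicle priming gene, had 25 against 13 (adjusted exact p = 0.116) and Syt1, the sensor of fast release, 12 against 8 (0.501). Of the 6 genes with too few tags, Stx1a had 12 against 6, Syn1 8 against 5, Cplx1 8 against 4, Cplx2 8 against 8 and Syp 3 against 1, and Syt4 was the 1 gene of this role with fewer anti-FLAG tags, 8 against 11.

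Of the granule and secreted protein genes, 3 were tested and 0 passed. Chgb had 23 against 10 (log2 ratio 1.13, adjusted exact p = 0.0675), with 14 and 3 of them in the bin of its element. Vgf, a neuropeptide precursor gene, had 14 against 7 (adjusted exact p = 0.228), and Scg2, the secretogranin II gene with the lowest GC content of the group at 38%, had 17 against 12 (0.482). Chga had 13 against 4, Bdnf 10 against 7 and Scg3 7 against 9, below the tag minimum. Bdnf has 7 annotated transcript starts. The windows around them held between 10 and 26 anti-FLAG and between 4 and 17 IgG tags. When windows around all transcript starts were joined for every gene, Bdnf passed (log2 ratio 1.09, adjusted exact p = 8.94e-04), and 25.5% of all promoters then tested did so as well.

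The GABA and calcium-buffer genes and the cytoskeletal genes had the fewest anti-FLAG tags of the roles. The 2 GABA-synthesis genes and Calb1, the gene of calbindin, had 17 anti-FLAG against 19 IgG tags together (ratio 0.900, 0.439 to 1.83), with Gad2 at 3 against 7. The 6 cytoskeletal genes had 48 against 35 (ratio 1.38, 0.874 to 2.20, with 1.48 expected from GC content). Tubb3, the neuronal tubulin gene, was the 1 tested among them, with 13 against 10 (adjusted exact p = 0.649). The neurofilament genes split, with Nefh at 10 against 4, Nefm at 8 against 3 and Nefl at 4 against 9. Stmn3 had 9 against 5 and Stmn2 4 against 4, the latter with its element outside the window.

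The receptor and channel genes had a ratio of 2.69 (1.80 to 4.12) from 91 against 34 tags, with 1.30 expected, and the adhesion, scaffold and RNA-binding genes one of 2.66 (1.65 to 4.39) from 66 against 25, with 1.35 expected. In all 7 receptor and channel genes anti-FLAG tags were more numerous. Of the 6 adhesion, scaffold and RNA-binding genes, 3 had more anti-FLAG tags, 2 fewer and 1 an equal count. Relative to the GC-expected ratio, the median log2 ratio was 0.73 for the receptor and channel genes and 0.08 for the latter role. Glra1 had 22 against 5 around position 55421700 of chromosome 11 (ratio 4.43, 1.64 to 15.0, log2 ratio 1.95, adjusted exact p = 0.00790, and 0.199 against the GC-expected ratio), with 16 and 1 of them in the bin of its element. With 2.5 kb either side it did not pass (log2 ratio 1.1, adjusted exact p = 0.0779). Grin1, the obligatory NMDA receptor subunit gene, had 11 against 1 (ratio 11.1, 1.61 to 476), under the tag minimum. It passed when the minimum was lowered to 10 tags, as did 16.6% of all promoters then tested. Its tags lay outside the element, where 1 anti-FLAG tag was found. Scn3a, a sodium channel gene, had 23 anti-FLAG and 11 IgG tags (adjusted exact p = 0.0983) at only 39% GC, where 0.901 was expected. It passed with 500 bp either side of the TSS (log2 ratio 1.59, adjusted exact p = 0.0210), where 62.5% of all tested promoters did. A CTCF consensus match lay 40 bp downstream, in a window of 11 against 3 tags. Such matches lay within 10 kb of 3 of the 40 genes (7.5%), against 7.97% of all protein-coding genes. Cacna1a had 15 against 7 (adjusted exact p = 0.174), Gria2 8 against 5, Grin2a 7 against 2 and Kcnc1 5 against 3.

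Of the adhesion, scaffold and RNA-binding genes, Celsr3 and Mapk8ip2 were tested and both were called. Celsr3 had 26 against 4 around position 108728651 of chromosome 9 (ratio 6.54, 2.27 to 25.8, log2 ratio 2.44, adjusted exact p = 0.00121, and 0.108 against the GC-expected ratio). Mapk8ip2, a scaffold of JNK signalling enriched in brain, had 18 against 2 around position 89284344 of chromosome 15 (ratio 9.05, 2.17 to 80.4, log2 ratio 2.67, adjusted exact p = 0.00341, and 0.124 against the GC-expected ratio). In this gene 11 and 1 tags lay in the 500 bp upstream of the TSS, and no element of up to 4 letters different lay within 10 kb. Elavl3, a neuronal RNA-binding protein gene, had 11 against 5 tags. It passed with 2.5 kb either side (log2 ratio 1.64, adjusted exact p = 0.0138), where 10.5% of all tested promoters did. Nrxn3 had 7 against 8, L1cam 3 against 3 and Elavl4 1 against 3. The annotated gene starts of L1cam and Elavl4 lie 15271 and 59187 bp from their next transcript start, so their windows may not hold the promoter used most. The windows on those next starts held 10 against 1 at L1cam and 3 against 5 at Elavl4, and with all transcript starts joined neither gene passed (adjusted exact p = 0.0587 and 0.84).

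**Figure D4:**
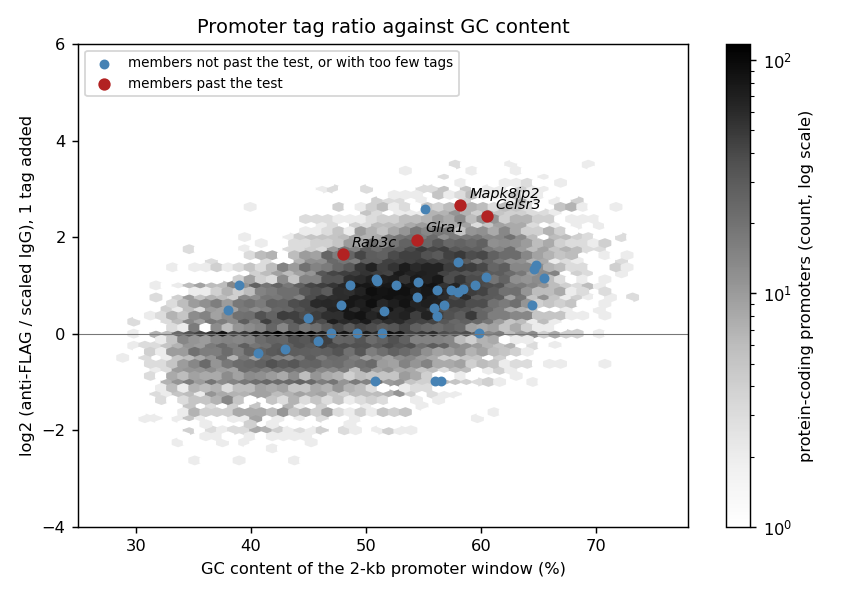
Log2 ratio of anti-FLAG to scaled IgG tags with 1 tag added (y) against the GC content of the 2-kb promoter window in percent (x), grey shades for the count of all protein-coding promoters on a log scale, with the 40 neuronal genes as points, red for the 4 past the test. Ratios rise with GC content among all promoters, and the neuronal genes, from 38 to 65.5% GC, lie within the cloud.

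Set beside other promoters of like GC content, the neuronal genes did not differ in 1 direction. At 45 to 55% GC their ratio was 1.95 (1.51 to 2.52, 16 genes) against 1.71 for the others, at 55 to 60% it was 1.81 (1.39 to 2.37, 14 genes) against 2.15, and at 60 to 65% it was 3.44 (2.04 to 6.08, 5 genes) against 2.45. Below 45% it was 1.29 (0.848 to 1.96, 4 genes) against 0.995. Apart from the lowest GC class, where they had 13.8 against 7.53, they had fewer anti-FLAG tags per promoter than the others, 11.5 against 15.4 at 45 to 55% and 11.4 against 16.0 at 55 to 60%. In those 2 classes IgG tags were fewer as well, 5.94 against 9.07 and 6.36 against 7.52. Other genes not typical of fibroblasts had lower ratios at lower GC content. A list of 20 liver genes had 1.1 (0.869 to 1.38, 46.2% GC), equal to the expected 1.1, and 1087 olfactory receptor genes had 0.841 (0.812 to 0.872, 38.5% GC), with 0.920 expected.

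The bin with the highest ratio was not the same as at genes at large. Summed over the 40 genes, the 500-bp bin with the highest ratio was 500 to 1000 bp downstream, with 140 against 47 tags (ratio 3.00, 2.14 to 4.26), whereas at the other genes it was the first 500 bp downstream (2.36, 2.33 to 2.39), and 500 to 1000 bp downstream had 1.43 (1.41 to 1.44). In the first 500 bp downstream the 40 genes had 2.31 (1.65 to 3.27), an interval that overlaps that of the next bin. Many of the anti-FLAG tags at 500 to 1000 bp lay at few genes. Snap25, Rab3c, Chgb and Celsr3, with 63 against 7 tags together, were the 4 with at least 10 anti-FLAG tags in that bin, and the other 36 had 77 against 40 (ratio 1.94, 1.30 to 2.91). That division was made on the anti-FLAG tags of this bin, so it favours a lower ratio in the rest, and no like division was made at the other protein-coding genes. From 1 to 5 kb upstream the neuronal genes had a ratio of 1.09 (0.978 to 1.22), with 1.06 expected, and from 1 to 5 kb downstream 1.29 (1.15 to 1.46), with 1.12 expected. The others had 1.12 in both.

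**Figure D5:**
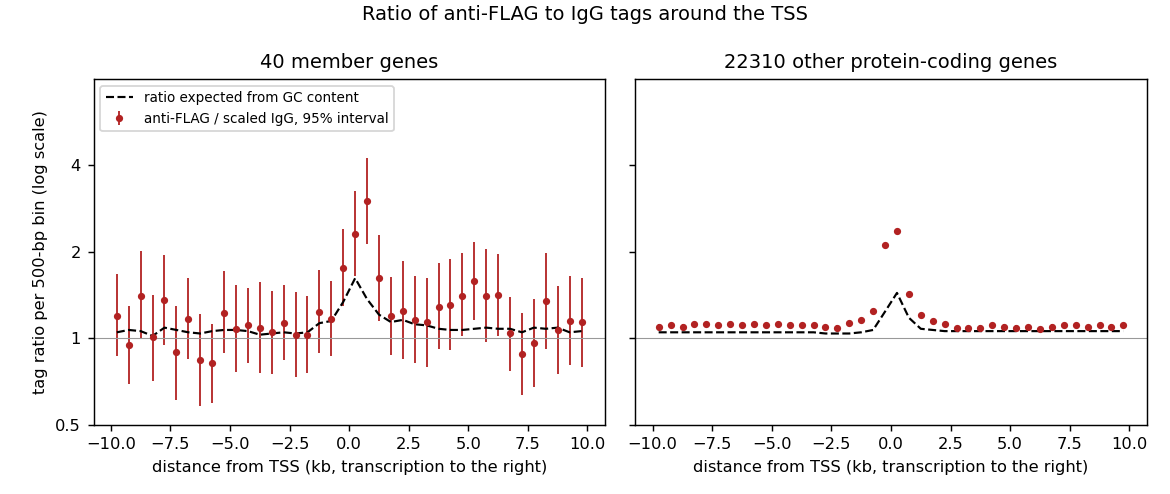
Ratio of anti-FLAG to scaled IgG tags (y, log scale) in 500-bp bins to 10 kb either side of the TSS (x, kb), for the 40 neuronal genes (left) and the 22310 other protein-coding genes (right), with exact 95% intervals and the ratio expected from GC content as a dashed line. The highest bin is 3.00 at 500 to 1000 bp downstream on the left and 2.36 in the first 500 bp on the right.

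Among single 500-bp bins to 10 kb either side, 67 bins of the neuronal genes had the 10 tags that the bin test required, and 5 passed, 1 each at Snap25, Syt4, Bdnf, Glra1 and Celsr3. Over all protein-coding genes 3.63% of tested bins passed (2268 of 62474). Celsr3 had 18 anti-FLAG and 0 IgG tags 500 to 1000 bp downstream, at least 6.03-fold higher with a floor of 3 counts for IgG in this library, and with an exact lower limit of 4.42 for the ratio (adjusted exact p = 0.00228). The bins of Snap25 and Glra1 each held 16 against 1 (adjusted exact p = 0.0147). Bdnf had 15 against 2 at 3500 to 4000 bp downstream (adjusted exact p = 0.0403), away from its element at 1355 bp. Syt4, a synaptotagmin of dense-core vesicles, had 13 against 1 at 5000 to 5500 bp downstream (adjusted exact p = 0.0315), a bin of only 32% GC. Against the GC-expected ratio 0 of the 67 passed, where 0.198% of all tested bins did, the Syt4 bin being nearest (adjusted exact p = 0.0588), and 8 (11.9%) had an unadjusted exact p under 0.05 with anti-FLAG higher, against 8.01% of all tested bins. All 5 called bins reached 10 tags through the anti-FLAG library. With a minimum of 20 tags 0 bins of the neuronal genes passed, but the 5 each held fewer than 20 tags and could not enter that test.

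Neuronal genes with and without an RE1 element could not be told apart by their summed promoter tags. The 20 with an element within 10 kb had a ratio of 2.02 (1.61 to 2.55) and the 20 without 1.81 (1.47 to 2.25), with overlapping intervals that are too wide to show equality. For the 14 with an element within 1 kb the ratio was 2.25 (1.71 to 2.99). In these, the element windows held 76 against 18 tags (ratio 4.25, 2.52 to 7.55), and the rest of the promoter windows 94 against 58 (1.63, 1.16 to 2.30). Other protein-coding genes with an element within 1 kb, 158 in all, had 2.01 (1.86 to 2.16).

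The genes of REST and its corepressors were counted as the other side of the pathway. Of 20, 13 were tested, 4 were called higher (30.8%, with 29.7% over all tested promoters) and 0 lower, and against the GC-expected ratio 0 passed. Kdm5c, a histone demethylase gene, had 33 anti-FLAG and 8 IgG tags (adjusted exact p = 0.00171, log2 ratio 1.93, and 0.0537 against the GC-expected ratio), and Ctdsp1, a small phosphatase gene, 23 against 6 (adjusted exact p = 0.0108). Rest itself had 7 against 5 tags, too few to test. Their ratio together was 2.22 (1.84 to 2.69), with 1.47 expected, and 0 of the 20 had an RE1 element within 10 kb.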

How the data were processed

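The deposited files list 1 mapped tag per line with its position and strand, and the score column of the deposited files is the constant 512, which carries no measurement. Tag length was 36 bp throughout and 0 tags shared position and strand within a library, so duplicates are absent from the deposited files. For aligner, build and filters, the labels read here give nothing; tag positions fit NCBIM37, with 4 anti-FLAG and 2 IgG tags beyond a chromosome end. Tags were counted after a move of 76 bp downstream, from the lag of 152 bp at which opposite strands of the anti-FLAG library coincided most. IgG was scaled by 0.994, the ratio of library totals. Promoters were tested over all protein-coding genes with at least 20 tags, 500-bp bins and element windows with at least 10, by 2-sided exact binomial tests adjusted by Benjamini-Hochberg at 0.05. GC-expected ratios came from strata of 2 GC points with at least 1000 tags. Above 66% GC the highest stratum was used. The 40 genes and all lists were chosen with earlier results of these data known. Analysis used Python 3.11.15, NumPy 2.4.6, SciPy 1.17.1, pandas 2.3.3 and Matplotlib 3.10.9.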

Additional observations from a re-analysis of the deposited data

How the results depend on the processing

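The count of 4 called promoters became 0 with either GC-expected ratio (500-bp parts or whole window), 1 (Scn3a) with 500 bp either side, alone or with the GC-expected ratio, and 3 to 6 under the other alternatives. With 500 bp only 3 of the 40 genes had the 20 tags required, and none of the 4 called promoters was among them. Over all promoters the 3248 calls became 282 and 112 with the GC-expected ratios, 1873 of 2999 tested with 500 bp (375 with GC as well) and 2132 of 20309 with 2.5 kb. IgG scaled to background bins moved the median log2 ratio of all promoters from 0.59 to 0.72. Syt7 and Chgb then passed, as did 37.8% of all tested promoters. Syt7 and Rab3a passed with tags not moved, where 29.4% of all tested promoters did. The ratio of all 40 genes, 1.91, became 1.44 and 1.32 with the GC-expected ratios, 1.47 with 2.5 kb, 1.61 with all transcript starts and 1.38 with 500 bp and GC together, an alternative chosen after seeing the data. There the median log2 ratio turned to -0.12. Among tested genes, Syt1 (-0.09 and -0.14) and Tubb3 (-0.26 and -0.44) turned below 0 with the GC-expected ratios, Snap25 (-1.21) with 500 bp and Scg2 (-0.12) with 2.5 kb. The 5 called bins became 0 with the GC-expected ratio. With at least 20 tags 0 bins of these genes passed, but the 5 held fewer tags and were not tested there. Elements at these genes numbered 33 with up to 4 letters different. The ratio of 3.29 of the 21 elements with up to 3 letters different became 6.83 in 200-bp windows and 2.24 relative to GC. In the genome 2.15 became 3.00 with up to 2 letters, 3.70 in 200-bp and 1.65 in 1-kb windows, 1.82 relative to GC and 2.05 over 1 kb from every TSS. The causes were not tested. Most genes held too few tags for a test, and distant windows above 62% GC are few, so expected ratios there are the least certain.
No paired analysis was possible because each antibody has 1 library.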
